A study of Bos taurus with 8 samples.

Results

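The lysosomal cathepsins described here are the genes CTSB, CTSC, CTSD, CTSH, CTSK, CTSL, CTSS and CTSZ. They were chosen by name, and their members are all array probe sets whose platform annotation gives 1 of these symbols and no other. All 8 genes were found, with 13 probe sets, among 9155 genes and 24016 tested probe sets. CTSB had 6 probe sets and each of the other 7 genes had 1. The samples were biopsies of the lactating udder tissue of 4 Holstein cattle (Bos taurus), and each biopsy was hybridised to a single-colour oligonucleotide array. Every cow gave a full sample, taken 12 h after milk removal, and an empty sample, taken at 0 h, just after it. The breed, the tissue and the lactating state were common to both groups, and no other treatment or genotype is named in the labels. The sources used here do not give the age of the cows, which gland of the udder was sampled or the order of the biopsies. Filling cannot be told apart from other changes between both biopsies of a cow.

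Cathepsins are proteases that are made as inactive proenzymes in the endoplasmic reticulum, tagged with mannose 6-phosphate in the Golgi and switched on by the acid of the lysosome. Most are papain-like cysteine proteases, while CTSD is an aspartic protease. In the mouse mammary gland, cathepsin expression and activity are known to increase after weaning, when milk stasis starts the regression of the secretory tissue. The pairing shows whether transcripts of these enzymes differ within a cow between 12 h after milk removal and just after it.

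No cathepsin probe set passed the test of full against empty gland. In limma with cow as a block, 0 of the 13 passed an adjusted p of 0.05, and the smallest adjusted p was 0.993. Over the whole array 0 of 24016 probe sets passed, which is 0% called. Before adjustment, 600 probe sets had a p below 0.05 in limma, among them 1 of the 13, a dimmer one of CTSB. The mean was higher in full gland for 5 of the 8 genes (CTSB, CTSC, CTSH, CTSK and CTSS) and lower for 3 (CTSD, CTSL and CTSZ). Mean differences of the brightest probe set of each gene lay between -0.25 log2 (CTSL) and 0.23 log2 (CTSH), or 0.84-fold and 1.17-fold. Their median was 0.08 log2, beside -0.0036 log2 over all 9155 genes.

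Precision is limited by the number of arrays, 8. Of these, the full arrays of cow 2 and cow 4 were the least like the others: their median correlation with the remaining arrays was 0.969 and 0.9753, while it was 0.986 to 0.987 for the other 6. Control probe sets along 4 housekeeping transcripts set the full array of cow 2 apart for 3 of them and that of cow 4 for actin. The actin signal at the 5′ end minus that at the 3′ end was -1.36 log2 in the full array of cow 4, and between -0.07 and 0.07 log2 in the 7 others. For GAPDH the same difference was -3.31 log2 in the full array of cow 2, and between -2.13 and -1.53 log2 in the 7 others. That array also had the lowest values for EF1A, at 0.75 log2 against 1.25 to 1.96 log2 in the 7 others, and for cyclophilin, at -2.54 log2 against -2.02 to -1.87 log2. In the full array of cow 4 the GAPDH, EF1A and cyclophilin values, -1.71, 1.91 and -1.98 log2, lay within those of the other arrays. The part of RNA integrity in the cathepsin values was not tested, and the values without cows 2 and 4 are given beside those with them. In a biopsy, fewer cells of a type and less RNA per cell cannot be told apart.

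CTSD, the aspartic endopeptidase of lysosomes, whose proenzyme also occurs in bovine milk, was the cathepsin with the steadiest difference. Its log2 signal was 9.99, 9.81, 9.79 and 9.91 in the full gland of cows 1 to 4, against 10.16, 9.85, 10.07 and 10.04 in the empty gland of the same cows. The full value was the lower one in every cow, although the groups overlapped because the empty sample of cow 2 was low. The 4 differences were -0.17, -0.04, -0.29 and -0.14 log2. Their mean was -0.16 ± 0.07 log2 (limma's moderated SE, n = 4 cows), with a 95% interval of -0.34 to 0.02 (limma adjusted p = 0.993). Without cows 2 and 4 the difference was -0.23 log2 (limma adjusted p = 0.537, unadjusted p = 0.0403). That limma fit held cows 1 and 3 only, and 2150 of 24016 probe sets had an unadjusted p under 0.05 in it. CTSD was the only one of the 13 cathepsin probe sets that was lower in all 4 cows. Over the array, 5.97% of probe sets were lower in all 4 cows and 4.22% were higher in all 4, a pattern no cathepsin probe set showed.

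**Figure D1:**
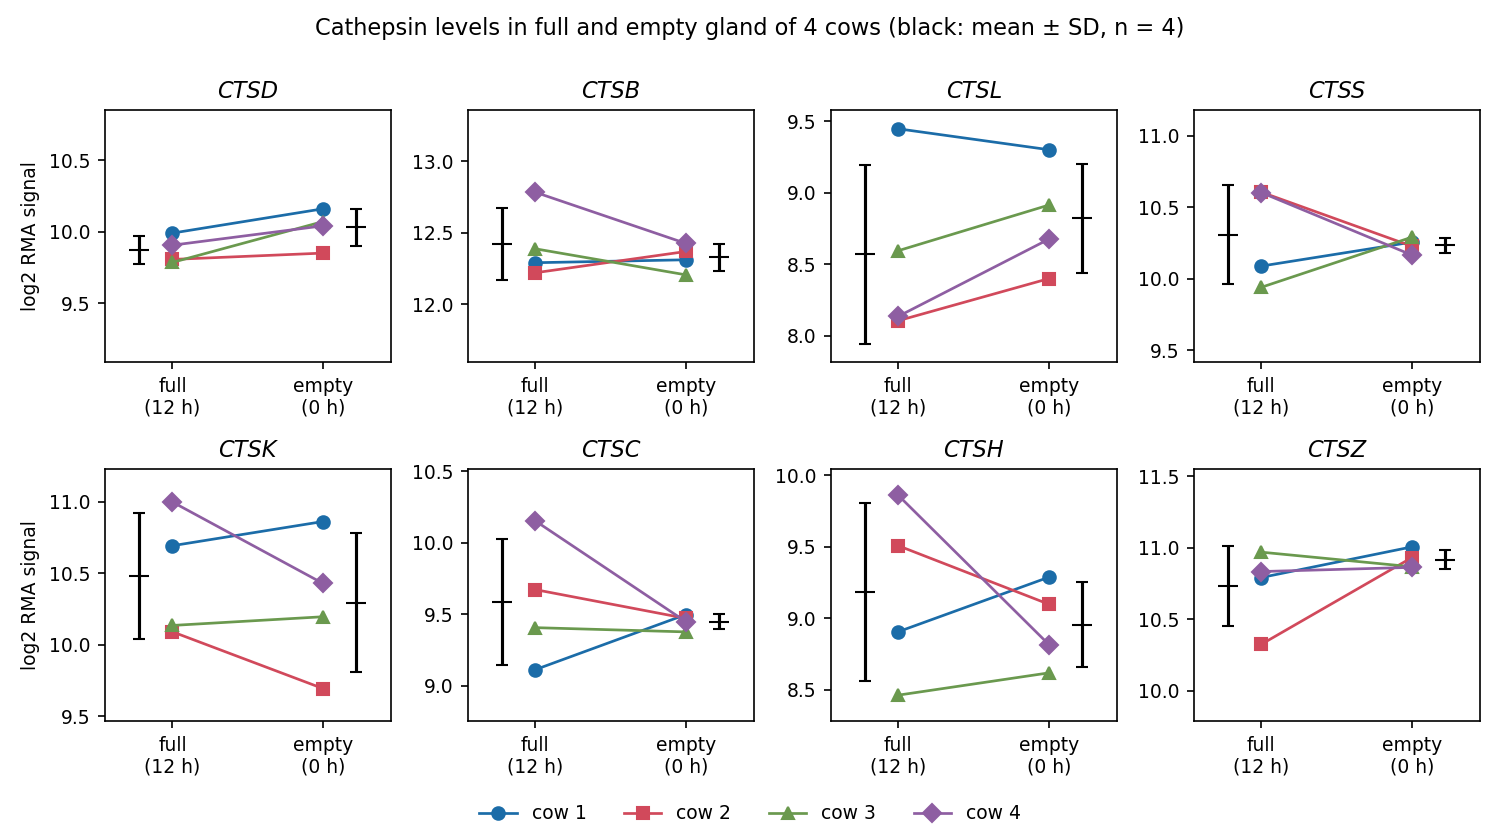
Log2 RMA signal of the brightest probe set of each cathepsin in full (12 h) and empty (0 h) gland, with a line for each cow and the mean ± SD (n = 4) in black. Every panel spans the same number of log2 units. CTSD was lower in the full gland of every cow, while CTSS, CTSC and CTSZ lay close together in empty gland and apart in full gland.

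CTSB, a cysteine protease that works both as an endopeptidase and by clipping dipeptides from the carboxyl end, was measured by 6 probe sets, and these did not move alike. The brightest read 12.29, 12.22, 12.39 and 12.78 log2 in full gland of cows 1 to 4, against 12.31, 12.37, 12.20 and 12.42 log2 in empty gland. Only the full sample of cow 4 lay above all empty samples. On average it differed by 0.09 ± 0.10 log2 (SE, n = 4 cows), with a 95% interval of -0.16 to 0.34. The second brightest, which is the only cathepsin probe set annotated with a RefSeq transcript, differed by 0.13 ± 0.15 log2 and by 0.66 log2 in cow 4. Both of these probe sets were lower in full gland in cows 1 and 2 and higher in cows 3 and 4.

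Another CTSB probe set, next in signal, gave another pattern. It read 7.91, 8.58, 7.71 and 8.81 log2 in full gland of cows 1 to 4, against 7.76, 7.91, 7.71 and 7.97 log2 in empty gland. The full samples of cows 2 and 4 stood above every other sample, and cow 3 did not differ. Over the cows it differed by 0.42 ± 0.16 log2 (SE, n = 4 cows), with a 95% interval of 0.02 to 0.81 and an unadjusted p of 0.0406 in limma that did not pass adjustment (adjusted p = 0.993). Over the array 1.1% of probe sets were higher at that unadjusted threshold. Without cows 2 and 4 the difference was 0.07 log2.

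The remaining CTSB probe sets were dim, with means of 6.82, 5.82 and 5.71 log2 in full gland and 6.68, 5.77 and 5.77 log2 in empty gland, dimmer than the middle of each array. They differed by 0.14, 0.05 and -0.05 log2, so that 5 of the 6 CTSB probe sets had a higher mean in full gland. The annotation used here does not say which stretch of the CTSB transcript each one reads. Signal strength also depends on the probes, so bright and dim describe the signal of a probe set and not the amount of transcript relative to another gene.

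CTSL, a potent lysosomal endopeptidase, had the most negative mean difference and the widest range between animals. Its log2 signal was 9.45, 8.11, 8.60 and 8.14 in full gland of cows 1 to 4, against 9.30, 8.40, 8.92 and 8.68 in empty gland. It was lower in full gland in cows 2, 3 and 4 and higher in cow 1, which was highest in both states. Its mean difference was -0.25 ± 0.12 log2 (SE, n = 4 cows), with a 95% interval of -0.55 to 0.05 (limma adjusted p = 0.993). Without cows 2 and 4 it was -0.09 log2. In RefSeq the symbol CTSV, a related gene on the same chromosome (8) of cattle, carries CTSL as an older name, so an older report on bovine cathepsin L may refer to either. CTSV differed by 0.01 ± 0.08 log2 (SE, n = 4 cows), from -0.12 log2 in cow 1 to 0.17 log2 in cow 4.

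CTSS, the cysteine protease that trims the invariant chain of MHC class II in antigen-presenting cells, lay within a narrow band in empty gland. Its log2 signal was 10.09, 10.61, 9.94 and 10.60 in full gland of cows 1 to 4, against 10.26, 10.23, 10.29 and 10.17 in empty gland. The full samples of cows 2 and 4 lay above all empty samples, and those of cows 1 and 3 lay below them. This averaged to 0.07 ± 0.15 log2 (SE, n = 4 cows), with a 95% interval of -0.31 to 0.45. Without cows 2 and 4 it was -0.26 log2 (limma adjusted p = 0.520, unadjusted p = 0.029), so that its sign rested on those cows. In that limma fit 2150 of 24016 probe sets had an unadjusted p under 0.05. Among them were 3 of the 13 cathepsin probe sets (CTSD, CTSH and CTSS).

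CTSK, a collagen-degrading protease best known from osteoclasts, neighbours CTSS on cattle chromosome 3 with 1 annotated coding gene between them. Its log2 signal was 10.69, 10.09, 10.13 and 11.00 in full gland of cows 1 to 4, against 10.86, 9.69, 10.20 and 10.43 in empty gland. The cows kept more of their order across the states than for CTSS, with cow 1 and cow 4 the high ones in both. Full minus empty averaged 0.18 ± 0.14 log2 (SE, n = 4 cows), with a 95% interval of -0.17 to 0.53. It was positive in cows 2 and 4 and negative in cows 1 and 3, and without cows 2 and 4 it was -0.11 log2. The CTSK and CTSS signals correlated at r = 0.20 over the 8 arrays, which share cows in pairs.

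Of the cathepsins that trim the ends of peptides, CTSC and CTSH were highest in the full samples of cows 2 and 4, and CTSZ was not. CTSC, which removes dipeptides from the amino end and activates the granule proteases of neutrophils and cytotoxic cells, had log2 signals of 9.11, 9.67, 9.41 and 10.15 in full gland of cows 1 to 4. The matching empty samples read 9.50, 9.47, 9.38 and 9.45, so that the empty gland was nearly uniform while cow 1 lay below it and cows 2 and 4 above it when full. The mean difference was 0.14 ± 0.17 log2 (SE, n = 4 cows), with a 95% interval of -0.29 to 0.57, and -0.18 log2 without cows 2 and 4.

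CTSH, an aminopeptidase, had the largest single difference of any cathepsin probe set. Its log2 signal was 8.91, 9.51, 8.46 and 9.86 in full gland of cows 1 to 4, against 9.29, 9.10, 8.62 and 8.82 in empty gland. Cow 4 was higher by 1.04 log2 and cow 2 by 0.41 log2 when full, while cows 1 and 3 differed by -0.38 and -0.16 log2. The mean difference was 0.23 ± 0.24 log2 (SE, n = 4 cows), with a 95% interval of -0.36 to 0.81. Without cows 2 and 4 it was -0.27 log2 (limma adjusted p = 0.520, unadjusted p = 0.0286). An unadjusted p under 0.05 was found for 2150 of 24016 probe sets in that limma fit.

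CTSZ, a carboxypeptidase also called cathepsin X, took the opposite direction in cow 2. Its log2 signal was 10.79, 10.32, 10.97 and 10.83 in full gland of cows 1 to 4, against 11.01, 10.93, 10.87 and 10.86 in empty gland. The full sample of cow 2 was the lowest of all, 0.61 log2 below its empty partner, and the cow 4 pair differed by -0.03 log2. The mean difference was -0.19 ± 0.13 log2 (SE, n = 4 cows), with a 95% interval of -0.50 to 0.13, and -0.06 log2 without cows 2 and 4.

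**Figure D2:**
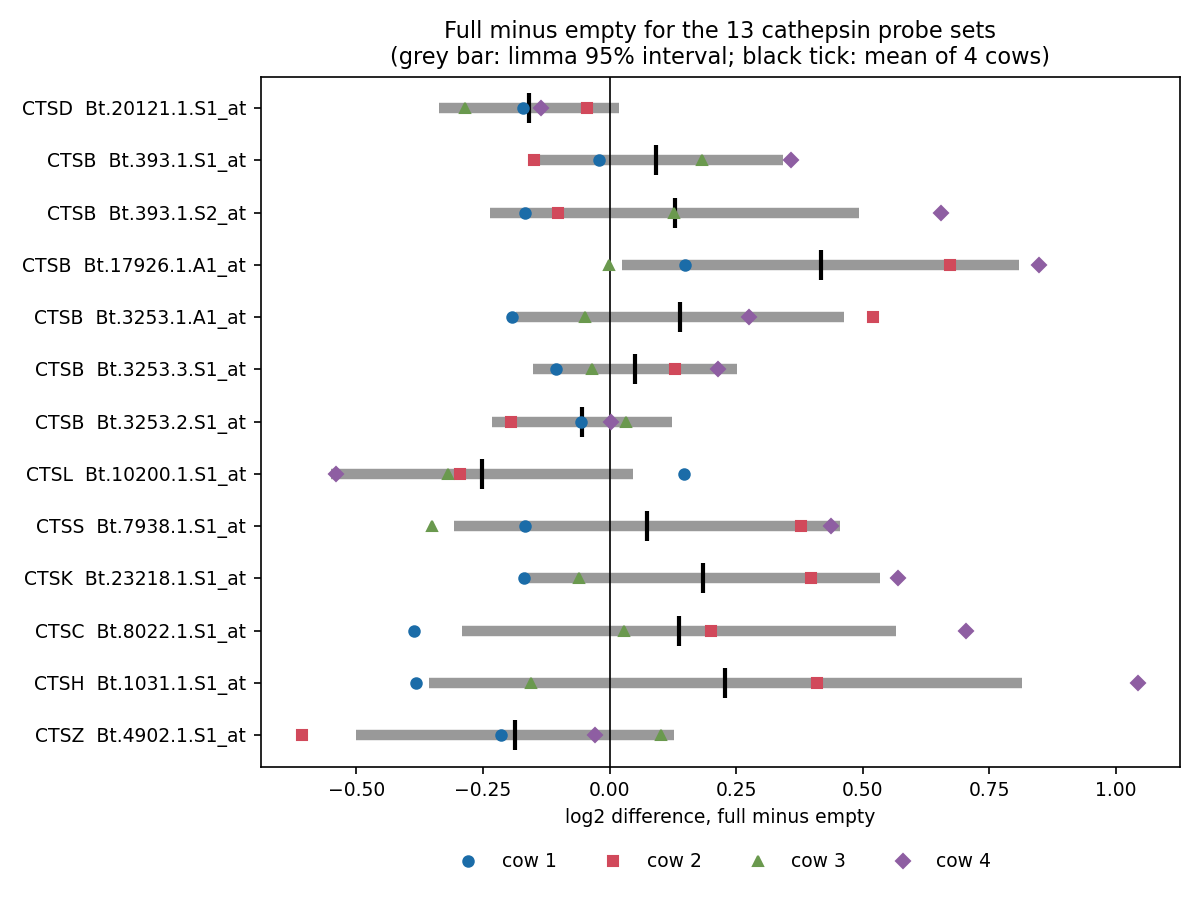
Full minus empty log2 difference of the 13 cathepsin probe sets, with 1 point per cow, the mean as a black tick and limma's 95% interval as a grey bar. CTSD has all 4 points below 0, and the points of cow 4 reach 0.85 log2 for a CTSB probe set and 1.04 log2 for CTSH.

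Seen by animal, the median difference of the cathepsins had opposite signs in cows 1 and 4. In cow 1, 7 of the 8 genes were lower in full gland, beside 5780 of all 9155 genes. The median of the 8 was -0.17 log2, against -0.05 log2 over all genes. In cow 4, 5 of the 8 were higher, beside 4869 of all 9155 genes. The median there was 0.40 log2, against 0.02 log2 over all genes. The medians in cows 2 and 3 were 0.08 and -0.11 log2, against 0.03 and -0.02 log2 over all genes. Over the members the median without cow 4 was -0.05 log2, and without cows 2 and 4 it was -0.15 log2.

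The spread between cows was wider in full gland for 6 of the 8 cathepsins, and 75.2% of all genes also had the larger SD in full gland. CTSC had an SD of 0.44 log2 in full and 0.05 log2 in empty gland (n = 4), a ratio of 8.47. For CTSS the SD was 0.35 log2 in full and 0.05 log2 in empty gland, a ratio of 6.51, and for CTSZ 0.28 and 0.07 log2, a ratio of 4.16. These 3 genes had at least 4 times the spread in full gland, as did 8.32% of all genes, and the median ratio over all genes was 1.54. CTSD and CTSK were the exceptions, with ratios of 0.73 and 0.91. The wide full spreads of CTSC and CTSS include the full arrays of cows 2 and 4. That of CTSZ includes its lowest value, 10.32 log2, in the full array of cow 2. The ratios were not tested.

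Values of full and empty gland overlapped for all 13 cathepsin probe sets, while 0.812% of all probe sets had groups that did not overlap. The cows themselves were compared by an F-test in limma, and 0 of 13 passed an adjusted p of 0.05, beside 0.437% of all probe sets. At an unadjusted p under 0.05 there were 2, CTSL and CTSK, beside 14.8% of all probe sets, so their share was close to that of the array. CTSL averaged 9.38, 8.25, 8.76 and 8.41 log2 over the full and empty samples of cows 1 to 4, a range of 1.12 log2 (F-test adjusted p = 0.147). CTSK averaged 10.78, 9.89, 10.17 and 10.71 log2, a range of 0.88 log2 (F-test adjusted p = 0.232). CTSD and CTSZ varied least among the brightest probe sets, with ranges of 0.25 and 0.29 log2.

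**Figure D3:**
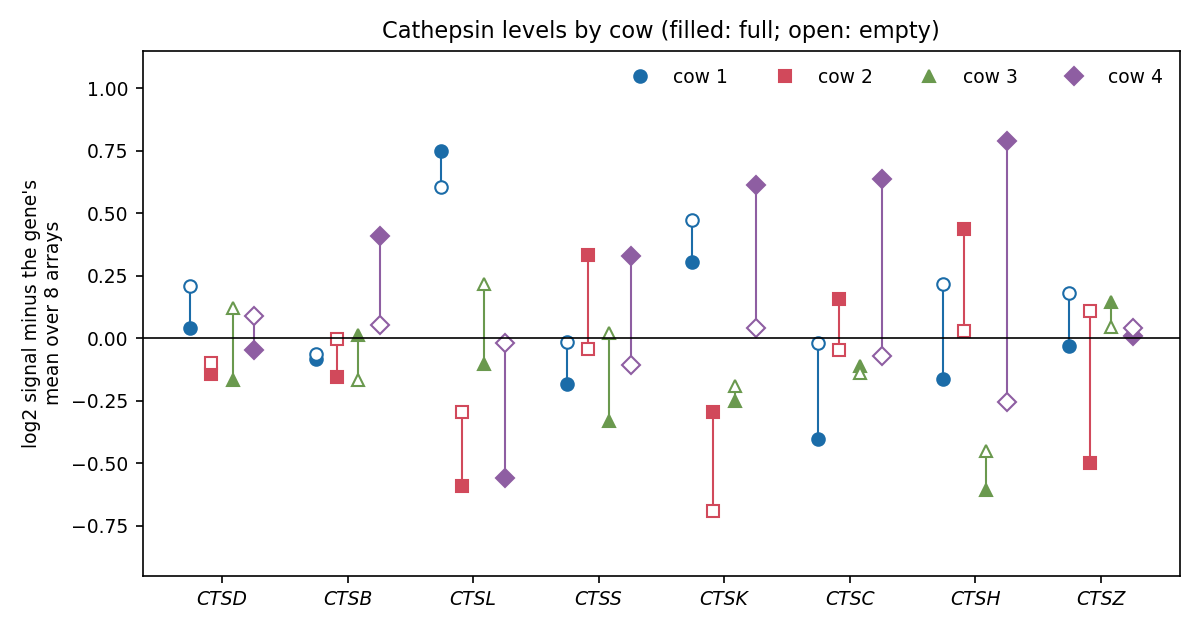
Log2 signal of each cathepsin minus its mean over the 8 arrays, for each cow, with filled symbols for full and open symbols for empty gland. CTSL was high in both samples of cow 1, CTSK was high in cows 1 and 4, and the filled symbols of cow 4 lie above the open ones for 5 of the 8 genes.

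Among themselves, the cathepsins fell into no single pattern over the 8 arrays, which come from 4 cows and are not independent. CTSH and CTSS had the highest correlation at r = 0.86, followed by CTSC with CTSH at 0.79 and CTSC with CTSS at 0.78. CTSC and CTSL had the lowest at r = -0.73. CTSD correlated with CTSL at 0.72 and with CTSS at -0.10.

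Over all genes, the patterns most like each cathepsin gave another view of the same values. The genes closest to CTSH were PAQR6 (r = 0.99), CSF1R, the receptor for the macrophage growth factor CSF1 (r = 0.99), and PARM1 (r = 0.98). Like CTSH, all 3 were higher in full gland in cows 2 and 4 and lower in cows 1 and 3. The full arrays of cows 2 and 4 were those least like the others. For CTSS the closest 3 were THEM4 (r = 0.99), the collagen VI chain COL6A1 (0.98) and EIF4G3 (0.97). For CTSC they were RCN1, CRABP2 and IRAG1, all at 0.97 to 0.98. CTSB was closest to STX7, a syntaxin of late endosomes, at 0.99, and then to OSMR and PFN1, both at 0.96 to 0.97. CTSD was closest to PRCC (0.98), GTF2H4 (0.95) and NOP14 (0.95). Like CTSD, these were lower in full gland in every cow, but they were picked for their likeness to it, so this adds no separate evidence. CTSL was closest to PCDH1, MARK2 and FBXO6 (0.97 to 0.99), CTSK to HOXB4, ELF3 and RALY (all 0.96) and CTSZ to PGP, FBXW11 and CLEC3B (0.97 to 0.99). With 8 arrays and 9155 genes, high correlations are common, and no p is given.

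The rest of the lysosomal system gave no call either. No gene of its lists passed limma for full against empty gland. Of 8 further cathepsin symbols listed, 4 were measured: CTSA, CTSF, CTSV and CTSW. CTSL2, listed but not found, is another name of CTSV. CTSA, the serine carboxypeptidase that protects lysosomal glycosidases, differed by 0.13 log2, CTSF by 0.17 and the lymphocyte protease CTSW by 0.18, all with a limma adjusted p of 0.993. Their list median was 0.15 log2, with -0.09, 0.29, -0.09 and 0.31 log2 in cows 1 to 4.

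Inhibitors that hold cathepsins and other proteases in check were measured for 9 of 18 listed genes, 6 with a higher and 3 with a lower mean in full gland (median 0.05 log2). CST3, the secreted cystatin C, differed by -0.05 ± 0.10 log2 (SE, n = 4 cows), and CST6, cystatin E/M, by 0.05 ± 0.11 log2. SERPINB6, an intracellular serpin, was lower in full gland in all 4 cows, at 9.18 ± 0.06 log2 in full and 9.32 ± 0.05 log2 in empty gland (SD, n = 4). It differed by -0.14 log2 (limma adjusted p = 0.993), and its groups did not overlap. Over the array, 5.97% of probe sets were lower in all 4 cows and 0.812% had groups that did not overlap. SERPINB1 differed by 0.20 log2 and the broad protease trap A2M by 0.10 log2, with A2M at -0.33, 0.50, -0.31 and 0.53 log2 in cows 1 to 4. TIMP1, an inhibitor of matrix metalloproteinases, had the widest mean difference at 0.42 ± 0.22 log2, made up of 0.78 and 1.02 log2 in cows 2 and 4 and of -0.25 and 0.10 log2 in cows 1 and 3. SPINT1, SPINT2 and KNG1 differed by 0.04, -0.09 and 0.05 log2.

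Other lysosomal hydrolases were split evenly, with 13 of 26 measured genes higher and 13 lower and a median of -0.0055 log2. By cow their medians were -0.14, 0.12, -0.09 and 0.09 log2. ASAH1, acid ceramidase, differed by 0.24 log2, and SMPD1, acid sphingomyelinase, by -0.14 log2. The brightest were NPC2, which carries cholesterol out of the lysosome, at -0.01 log2, and PSAP, the precursor of the saposins, at -0.03 log2. PLBD2 differed by -0.12 log2.

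Genes of the lysosomal membrane and its proton pump stayed closest to 0, with cow medians of -0.02, -0.03, -0.01 and -0.02 log2 over 27 measured genes, 11 higher and 16 lower on average. CTNS, the cystine exporter, differed by -0.28 log2, LAMP2 by -0.14 log2 and the pump subunit ATP6V0E1 by -0.17 log2. The abundant membrane proteins CD63 and LAMP1 differed by -0.02 and 0.07 log2. Sorting genes, which carry new enzymes to the lysosome, had a median of -0.02 log2 over 14 genes, 5 higher and 9 lower. VPS35, the retromer core that returns sorting receptors, differed by -0.17 log2, AP1M1 by -0.22, SORL1 by 0.28 and VPS26A by 0.01.

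In the autophagy list, 8 of 19 measured genes were higher and 11 lower, with a median of -0.0031 log2. BECN1, a subunit of the lipid kinase that starts autophagosomes, was lower in full gland in all 4 cows at -0.08, -0.18, -0.26 and -0.22 log2, and WIPI1 differed by -0.34 log2. These 2 had unadjusted limma p of 0.0382 and 0.0422, and both had an adjusted p of 0.993. Of all 9155 genes, 256 had an unadjusted p under 0.05 in limma, and 651 were lower in all 4 cows. ATG9A differed by -0.19 log2, GABARAP by -0.09 and GABARAPL2 by -0.12. TFEB and MITF, factors that drive lysosomal genes, were below the median level of the arrays.

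Cell type markers moved with the cathepsins in some cows. Macrophage markers were measured for 12 of 15 genes, and their median difference was -0.36, -0.03, -0.13 and 0.83 log2 in cows 1 to 4. Their mean log2 level ranged from 7.85 to 8.76 in full and from 8.04 to 8.47 in empty gland, and VSIG4 and ITGAM were below the median level of the arrays. CD14, the marker with the strongest signal, differed by -0.35 log2, with -0.20, -0.97, 0.01 and -0.24 log2 in cows 1 to 4, so that it did not follow the list in cow 4. AIF1, next in signal, differed by 0.07 log2, MPEG1 by 0.31 and C1QC by 0.16. The cow with the highest macrophage median, cow 4, was also the one in which CTSH, CTSC, CTSK, CTSS and the brightest CTSB probe set had their highest differences. CTSL, CTSD and CTSZ differed there by -0.54, -0.14 and -0.03 log2. The full array of cow 4 was also the one set apart by the actin control. In cow 2 CTSH, CTSK and CTSS were higher by 0.41, 0.40 and 0.38 log2 while the macrophage median was near 0. The part of cell makeup in the cathepsin values was not tested.

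Class II antigen processing genes, which act with CTSS, were measured for 9 of 12 genes and had medians of -0.18, 0.05, 0.03 and 0.52 log2 in cows 1 to 4. BOLA-DRA and BOLA-DRB3, chains of the bovine DR molecule, differed by 0.04 and 0.15 log2 on average, BOLA-DOA by 0.18, and IFI30, a lysosomal thiol reductase, by 0.17 log2. In cow 4 IFI30 was higher by 0.76 log2, beside 0.44 log2 for CTSS. Between cows, BOLA-DQA1 and BOLA-DQB passed limma's F-test (adjusted p = 0.0052 and 0.0186). These were the only calls between cows among the lysosomal and class II lists, beside 0.437% of all probe sets. BOLA-DQB and BOLA-DOA were below the median level of the arrays.

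Fibroblast and myoepithelial markers also had their highest median difference in cow 4. Fibroblast genes (10 of 11 measured) had medians of -0.32, 0.18, -0.08 and 0.75 log2 in cows 1 to 4, with mean levels of 9.995 to 11.23 log2 in full and 10.09 to 10.57 log2 in empty gland. COL3A1 and DCN, the brightest, differed by 0.07 and 0.13 log2, and PDGFRA, FBLN1 and POSTN by 0.42, 0.32 and 0.15 log2. POSTN also passed the F-test between cows (limma adjusted p = 0.0301), alone among the cell type markers. Myoepithelial genes (9 of 10 measured) had medians of -0.01, 0.18, -0.15 and 0.67 log2, with KRT14 at 0.59 and KRT17 at 0.20 log2 on average, CNN1 at 0.30, MYLK at 0.15 and ACTA2 at 0.14.

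Luminal epithelial genes included the milk protein genes LALBA and CSN2 at 14.20 and 13.83 log2 in full gland and 14.20 and 13.84 log2 in empty gland, among the brightest signals of the array. Their list (11 of 12 measured) had medians of 0.01, 0.10, 0.04 and 0.0042 log2 in cows 1 to 4, although KRT18 was higher by 1.19 and 1.36 log2 in cows 2 and 4. CDH1 and PGR differed by 0.20 and -0.13 log2 on average.

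Neutrophil genes (7 of 10 measured) had medians of 0.01, -0.12, -0.11 and 0.36 log2, with S100A8 higher by 2.21 log2 in cow 2 and S100A12 by 1.55 log2 in cow 4. ELANE and MMP9 were dim, at 5.50 and 6.04 log2 in full gland and 5.57 and 5.85 log2 in empty gland. LTF was far brighter, at 13.31 log2 in full and 13.29 log2 in empty gland, and differed by 0.02 log2. Which cells gave the LTF signal was not tested. T and NK cell genes (10 of 11) had medians of -0.17, 0.34, -0.06 and 0.41 log2, with CD8A at 0.31, LCK at 0.14 and ZAP70 at -0.30 log2 on average. B and plasma cell genes (5 of 7) had medians of -0.13, 0.0049, -0.04 and 0.30 log2, with MS4A1 at 0.19, POU2AF1 at 0.17, CD79A at 0.05 and JCHAIN at -0.01 log2. Endothelial genes (7 of 8) had medians of -0.20, -0.42, 0.15 and 0.06 log2, with TEK at -0.22, FLT1 at -0.16, CDH5 at -0.15, EMCN at -0.06 and PECAM1 at 0.13 log2. Adipocyte genes (4 of 5) were all dim, and ADIPOQ, LEP, RETN and CIDEC differed by -0.04, -0.14, -0.11 and 0.10 log2.

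**Figure D4:**
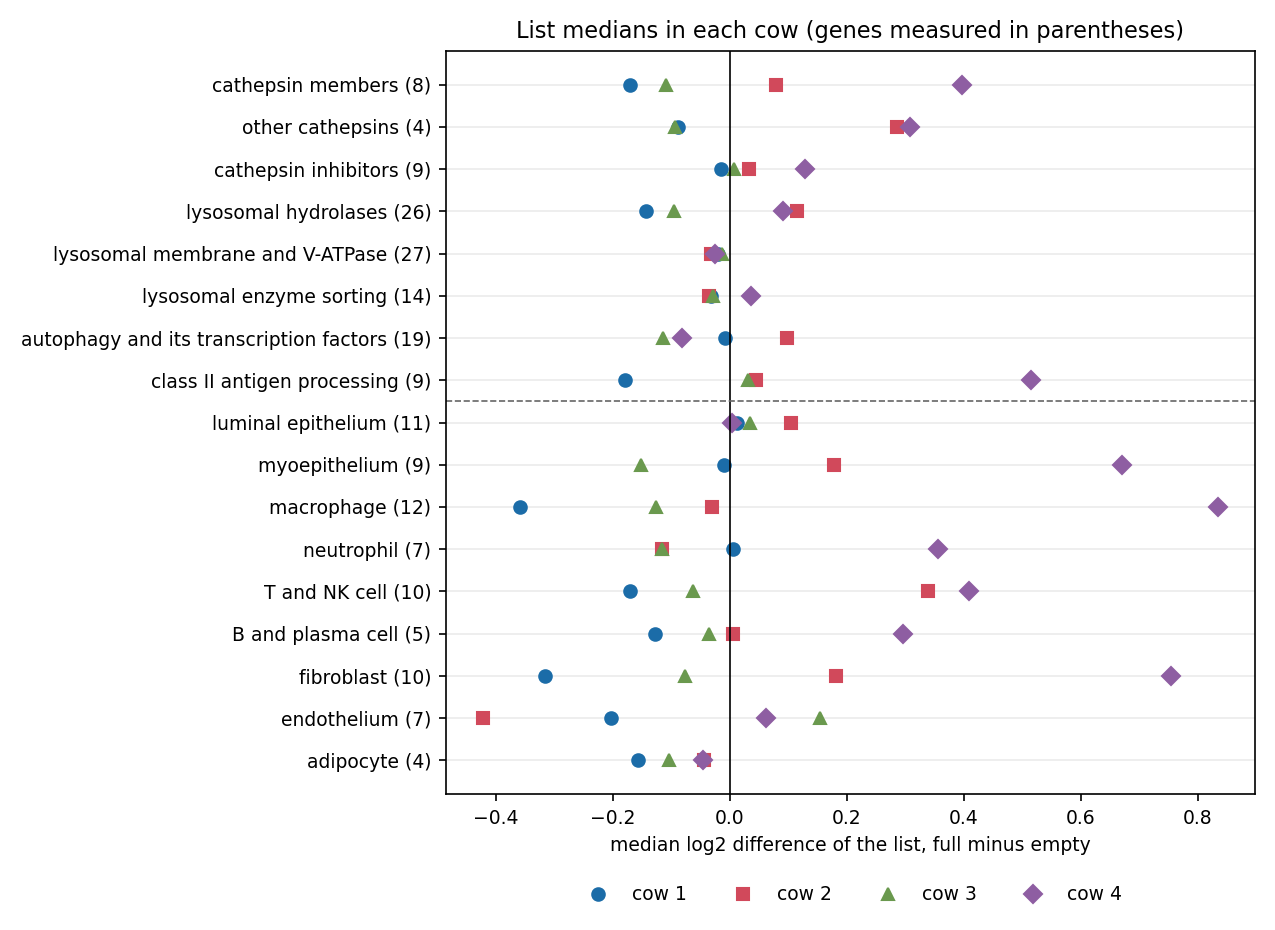
Median full minus empty log2 difference of each gene list in each of the 4 cows, with lysosomal lists above the dashed line and cell type markers below it, and the number of measured genes in parentheses. The points of cow 4 lie furthest right for the cathepsins (0.40), macrophage (0.83), fibroblast (0.75) and myoepithelial (0.67) lists, while the points of the lysosomal membrane list lie together near 0.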

How the data were processed

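Per the submitters' processing notes, the authors used RMA (version not given in the sources used here), and the deposited values are log2 signals of probe sets. RMA corrects background, quantile-normalizes arrays and summarises probes, so a shift common to most genes is not visible. Per the labels' protocols, RNA was primed with oligo(dT), which makes probe sets far from the 3′ end sensitive to RNA breakage. Of 24128 probe sets, 112 controls were left out. Symbols came from the platform annotation, which can be old (13292 probe sets with 1 symbol, 86 with several, 10638 with none); 13263 matched RefSeq of ARS-UCD2.0 by entrez number, and 0 symbols changed. Where a gene had several probe sets, the brightest stands for it.

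The test was limma 3.58.1 in R 4.3.3 (lmFit, eBayes, two-sided, state and cow as fixed terms, 3 residual and 2.81 prior degrees of freedom), with Benjamini-Hochberg adjustment over all 24016 probe sets. The block follows the labels, which name a full and an empty sample of each animal; deviations from group means correlated at 0.457, 0.319, 0.597 and 0.525 within cows and at -0.03 or below between them. The fit was tested on simulated data. Named genes were all cathepsins, further cathepsins and inhibitors measured, the 3 genes with the smallest unadjusted p and the 2 brightest of every other list, and the 3 most correlated genes per cathepsin. Which values by cow to print was chosen after they were seen. Members, lists and alternatives were chosen with earlier results of these data known. Tables used pandas 2.3.3 and numpy 2.4.6 in Python 3.11.15, and figures matplotlib 3.10.9.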

Additional observations from a re-analysis of the deposited data

Results flagged for a closer look

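In 79 groups of 4 samples, 4 held a value whose gap to its nearest neighbour took up most of the group's range, and chance gives about 1 in 20. None of the 4 was among the 39 groups of cathepsin values. The 5′ minus 3′ actin control was -1.36 log2 in the full array of cow 4, against -0.03 to 0.07 log2 in the other full arrays. The 5′ minus 3′ GAPDH control was -3.31 log2 in the full array of cow 2, against -1.71 to -1.53 log2 in the other full arrays. The mean level of the autophagy list was 9.17 log2 in the empty array of cow 2, against 9.31 to 9.33 log2 in the other empty arrays. The mean level of fibroblast genes was 10.09 log2 in the empty array of cow 3, against 10.50 to 10.57 log2 in the other empty arrays.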

How the results depend on the processing

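No cathepsin, list member or other probe set passed for full against empty under any of the 13 alternatives in limma. With no replicate block (cow left out) 0 passed, the smallest adjusted p was 1, and 220 had an unadjusted p under 0.05. CTSD, CTSL, CTSZ and 3 CTSB probe sets kept their sign throughout. Without cows 2 and 4 the sign turned for CTSC (-0.18), CTSH (-0.27), CTSK (-0.11), CTSS (-0.26) and 3 CTSB probe sets (-0.020, -0.12 and -0.071), and with array weights for CTSS (-0.10). Leaving out 1 cow gave -0.052 to 0.31 for CTSC, -0.043 to 0.43 for CTSH, -0.047 to 0.22 for CTSS, and -0.047 to 0.23 and -0.0041 to 0.10 for 2 CTSB probe sets; the negative values came without cow 4, and for CTSS also without cow 2. The median over the cathepsins lay between -0.15 and 0.14. Between cows, no cathepsin passed except with cows 2 and 4 left out. Cows 1 and 3 then differed for CTSH, CTSK and CTSL, 3 of 13 cathepsin probe sets, beside 1820 of all 24016 probe sets. The array count of 105 became 208 with median centring, 1820 without cows 2 and 4, 248 with an intensity trend and robust prior, 286 with array weights, 255 at a threshold of 0.10 and 13 to 131 with 1 cow left out. Why these counts moved was not tested.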
